A study of Mus musculus with 2 samples.

Results

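Transcripts of 45 genes for histone-modifying enzymes and the subunits of their complexes were followed in E14 mouse embryonic stem cells (129/Ola background) with and without knockdown of Son. Son encodes a large RNA-binding protein of nuclear speckles that takes part in splicing. The genes were chosen by symbol from a list of MLL/SET1, Polycomb, demethylase, deacetylase, histone H3 lysine 9 (H3K9) methyltransferase and acetyltransferase genes, a list drawn up with earlier results of these data known, and all 45 were found among the 32285 genes listed. The study grew the cells in serum with leukaemia inhibitory factor and transfected them with a control small interfering RNA (siRNA) or with siRNA against Son, with Lipofectamine2000 in both cases. The cells were taken 24 hours later, frozen, thawed, stained with 7-AAD (a dye that enters dead cells), sorted for healthy cells and barcoded with 10x Genomics 3' v3 chemistry. Each group, named control and sonKD, held 1 library, so no difference below has a replicate check, no p-value is given, and the knockdown cannot be told apart from other differences between the libraries.

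Histone marks are written and erased by enzymes that mostly work inside multi-subunit complexes. MLL/SET1 complexes methylate H3 lysine 4 at active promoters and enhancers, and Polycomb complexes silence developmental genes in stem cells through H3 lysine 27 methylation (PRC2) and H2A ubiquitination (PRC1). H3K9 methyltransferases mark silent chromatin, and the balance of acetyltransferases and deacetylases sets the acetylation of active regions. Embryonic stem cells are known for carrying activating and Polycomb marks together at many developmental promoters.

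A barcode counted as a cell from 2500 unique molecular identifiers (UMIs, each marking a captured molecule) and 1000 genes upwards, if mitochondrial genes held no more than 10% of its UMIs. This gave 4978 control cells with a median of 7737.5 UMIs and 2731 sonKD cells with a median of 11612 UMIs. The cells of the libraries shared 2 barcode sequences. Levels are CPM, the UMIs of a gene per 1000000 UMIs summed over the cells of a library, which held 40902904 UMIs in control and 32032551 in sonKD. The 8 pluripotency markers summed to 8164 and 8922 CPM, and Pou5f1, Sox2 and Nanog were present in both libraries. The higher sum in sonKD came from Dppa5a alone, which went from 5027 to 6075 CPM. Every other marker on this list was lower in sonKD, from 83.0% of control for Pou5f1 and 90.0% for Nanog up to 97.0% for Klf4. The summed level of 6 markers each of fibroblasts, primitive endoderm, trophectoderm, mesoderm and neuroectoderm was at most 11.5 CPM in either library. Of these, Col3a1, Lum, Elf5 and Neurog2 were at 0 in both. The share of UMIs in ribosomal protein genes was 20.8% in control against 24.1% in sonKD, that of mitochondrial genes was 3.82% against 4.19%, and the nuclear RNA Malat1 was at 2634 and 2192 CPM. The part of these differences in the ratios below was not tested, beyond the scalings and depths given.

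The siRNA target was examined before the histone modifiers. Son (ENSMUSG00000022961) was at 169 CPM (95% interval 165 to 173) in control and at 106 CPM (102 to 109) in sonKD, or 62.7% of control (60.2 to 65.4). Intervals are exact at 95%, apart from those of a difference between shares, and cover counting error only. PCR copies are collapsed by the UMIs, but differences between cultures are not covered.

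Of the 45 genes, 39 reached 10 CPM as the mean of control and sonKD, and they were set beside all 8063 genes at that level. A gene was past the lower limit when its sonKD level was 0.8 of the control level or less, and past the upper limit when its control level was 0.8 of the sonKD level or less. Of the 39, 5 were past the lower limit and 0 past the upper. These 5 were the H3K9 methyltransferases Ehmt2 and Setdb1, the deacetylase Hdac3, the H3 lysine 4 methyltransferase Setd1a and the demethylase Kdm4a. They made up 12.8% of the members at that level, while 10.2% of all genes were past the lower and 3.5% past the upper limit, so the count was near its background. Among the 39, Ehmt2 alone lay outside the range from the 5th to the 95th percentile of all ratios, which ran from -0.40 to 0.25 on the log2 scale. The median log2 ratio of sonKD over control was -0.22 for the 39 members and -0.12 for all genes, and 28 of the 39 lay below the median of all genes. The counting interval lay below 0 for 31 of the 39, against 51.5% of all genes. It lay above 0 for 2 of the 39, Kdm1a and Eed, against 12.3% of all genes. These intervals narrow with a gene's level, so such counts also depend on abundance. With TMM scaling, which moved the median of all genes to -0.03, the median of the members was -0.13 and Ehmt2 was the only member past the lower limit, where 4.60% of all genes were past the lower and 5.57% past the upper.

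The summed level of all 45 genes was 4623 CPM in control and 4139 CPM in sonKD. That is a log2 ratio of -0.16 (-0.17 to -0.15). The 6 genes with a mean under 10 CPM were Kmt2d, Ezh1, Ring1, Pcgf1, Hdac5 and Hdac7, whose levels were between 4.40 and 10.1 CPM. They are left out of the counts above. Among them, Hdac5, a class IIa deacetylase like Hdac7, was at 7.75 CPM (6.92 to 8.65) in control and at 5.74 CPM (4.94 to 6.64) in sonKD, or 74.1% of control. At the lower limit, Kdm4a lay just inside at 79.1% of control and Kdm5a just outside at 80.0%.

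**Figure D1:**
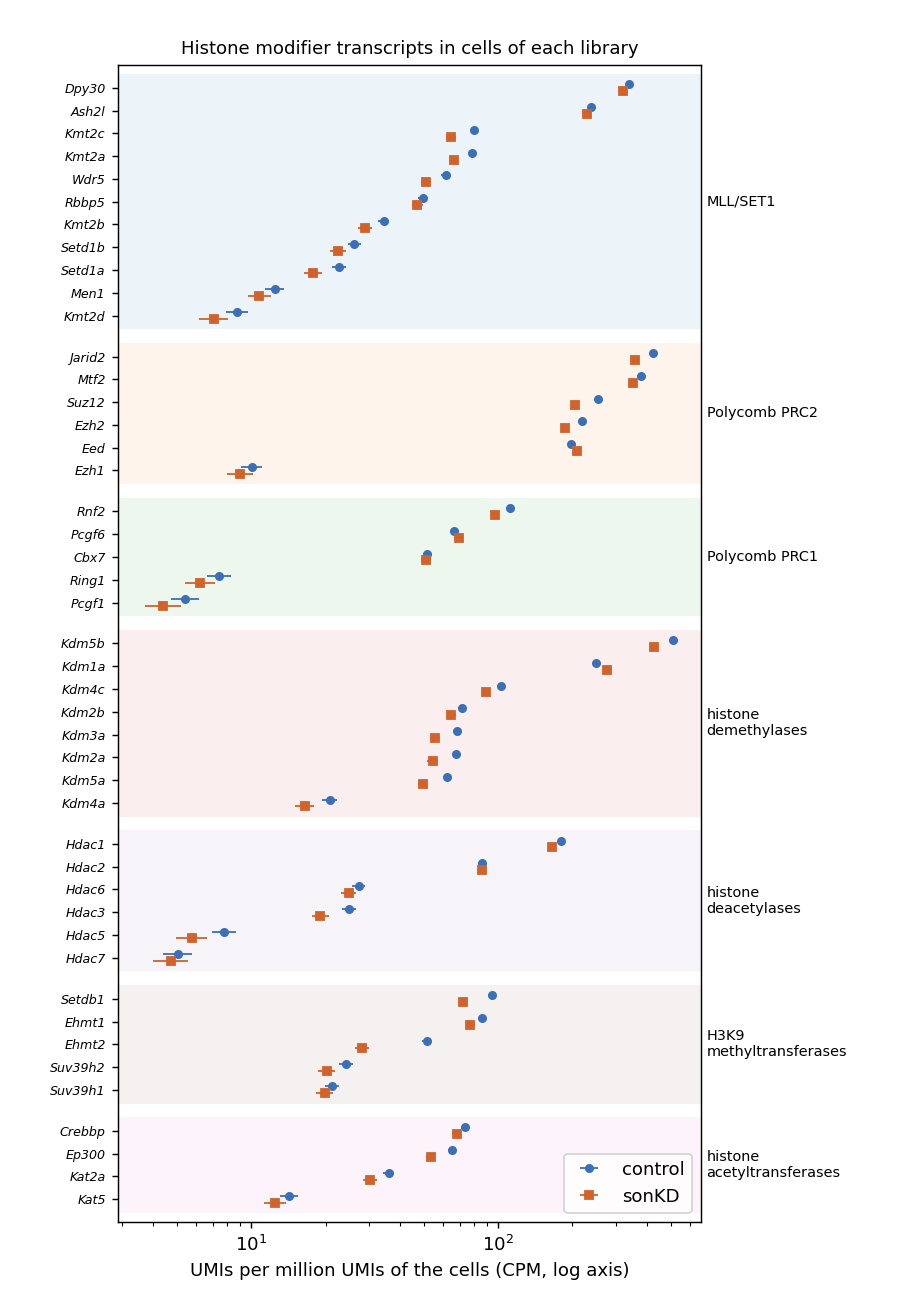
Level of each of the 45 genes in control (circles) and sonKD (squares), in CPM on a log axis, grouped by role and ordered by the control level, with 95% counting intervals. The levels span from 4.40 CPM (Pcgf1 in sonKD) to 510 CPM (Kdm5b in control), and Ehmt2 shows the widest gap between the libraries.

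All MLL/SET1 genes had a lower CPM in sonKD. Among them, the shared subunits Dpy30 and Ash2l were the most abundant and had ratios nearest 0. Dpy30, which stimulates the methyltransferase activity of these complexes, had 13814 and 10294 UMIs, or 338 CPM (332 to 343) in control and 321 CPM (315 to 328) in sonKD. Ash2l, a core subunit of the same module, had 9685 and 7355 UMIs, or 237 CPM (232 to 242) and 230 CPM (224 to 235). Their log2 ratios of -0.07 (-0.11 to -0.03) and -0.04 (-0.09 to -0.00) changed sign under TMM, to 0.02 and 0.05. Both share 3' end sequence with other annotated genes. Of the 31-base stretches in the last 500 bases, 5.74% for Dpy30 and 35.3% for Ash2l occur in another gene. The scaffold Wdr5 was lower in sonKD, at 51.1 CPM (48.7 to 53.6) against 61.3 CPM (58.9 to 63.7) in control, a ratio of -0.26. Rbbp5, another core subunit, was at 49.7 and 47.0 CPM, with a ratio of -0.08 that changed sign under TMM, to 0.01, and an interval that included 0.

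The 6 catalytic subunits all had a lower CPM in sonKD. Of all genes at 10 CPM, 74.9% had a ratio below 0. Setd1a, the enzyme of a SET1 complex, had 924 and 571 UMIs, or 22.6 CPM (21.2 to 24.1) in control and 17.8 CPM (16.4 to 19.4) in sonKD, a log2 ratio of -0.34 (-0.49 to -0.19). Its paralog Setd1b had a ratio of -0.22 (-0.36 to -0.08). Kmt2c, an enhancer methyltransferase, was at 79.7 CPM (76.9 to 82.4) in control and 64.7 CPM (61.9 to 67.5) in sonKD, a ratio of -0.30. Kmt2a and Kmt2b, which act at promoters of developmental genes, each had a ratio of -0.25. Kmt2d, the paralog of Kmt2c, was at 8.78 and 7.06 CPM, under the minimum level. Men1, which encodes the menin subunit of the Kmt2a and Kmt2b complexes, had a ratio of -0.21 (-0.41 to -0.01). The median over the 10 MLL/SET1 genes at 10 CPM was -0.23, with 1 gene past the lower limit.

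The Polycomb genes held no member past either limit, but the core subunits of PRC2 differed in direction. Suz12, the scaffold of PRC2, had 10381 and 6545 UMIs, or 254 CPM (249 to 259) in control and 204 CPM (199 to 209) in sonKD, a log2 ratio of -0.31 (-0.36 to -0.27). Ezh2, the methyltransferase, was at 219 CPM (215 to 224) and 187 CPM (182 to 192), a ratio of -0.23 (-0.28 to -0.18). Eed, the subunit that binds the methyl mark, had 8079 and 6684 UMIs, or 198 CPM (193 to 202) in control and 209 CPM (204 to 214) in sonKD, a ratio of 0.08 (0.03 to 0.13). The intervals of Suz12 and Ezh2 lay below 0 and that of Eed above it. These signs held under the 15 alternatives tried, but changes of the minimum level cannot move a ratio. In cells with 2500 to 5000 UMIs Ezh2 was close to 0, at -0.01 (-0.37 to 0.34). The sign of Eed did not hold at the S end of the cell cycle range. Nor did it hold in barcodes over 10% mitochondrial UMIs, at -0.07 (-0.22 to 0.09). Of the accessory subunits, Jarid2 had 17390 and 11533 UMIs, or 425 CPM (419 to 432) and 360 CPM (353 to 367), a ratio of -0.24 (-0.27 to -0.21), and Mtf2 had -0.10 (-0.14 to -0.07) from 378 CPM. Ezh1, the paralog of Ezh2, stood at 10.1 and 9.02 CPM.

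The 5 PRC1 genes summed to 243 and 228 CPM, against 1484 and 1322 CPM for the 6 PRC2 genes. Rnf2, an E3 ligase of PRC1, had 4587 and 3108 UMIs, or 112 CPM (109 to 115) in control and 97.0 CPM (93.6 to 101) in sonKD, a log2 ratio of -0.21 (-0.28 to -0.14). Pcgf6, a subunit of a variant PRC1 complex that represses germline genes, had 2701 and 2215 UMIs, or 66.0 CPM (63.6 to 68.6) and 69.1 CPM (66.3 to 72.1), and Cbx7, a chromodomain subunit of canonical PRC1, was at 51.7 and 51.0 CPM. The intervals of both ratios included 0. Under TMM the ratio of Cbx7, at -0.02, was 0.07, and that of Pcgf6, at 0.07, was 0.16. The ratio of Pcgf6 also varied with depth. It was 0.46 (-0.08 to 0.98) in cells with 2500 to 5000 UMIs and -0.20 (-0.38 to -0.03) with 5000 to 10000. With at least 10000 UMIs it was 0.09 (-0.03 to 0.20). Ring1, the paralog of Rnf2, and Pcgf1, a subunit of a variant complex, were under 10 CPM in both libraries. Of the 31-base stretches at the 3' end of Pcgf1, 34.0% occur in another annotated gene. The median over the 8 Polycomb genes at 10 CPM was -0.15.

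**Figure D2:**
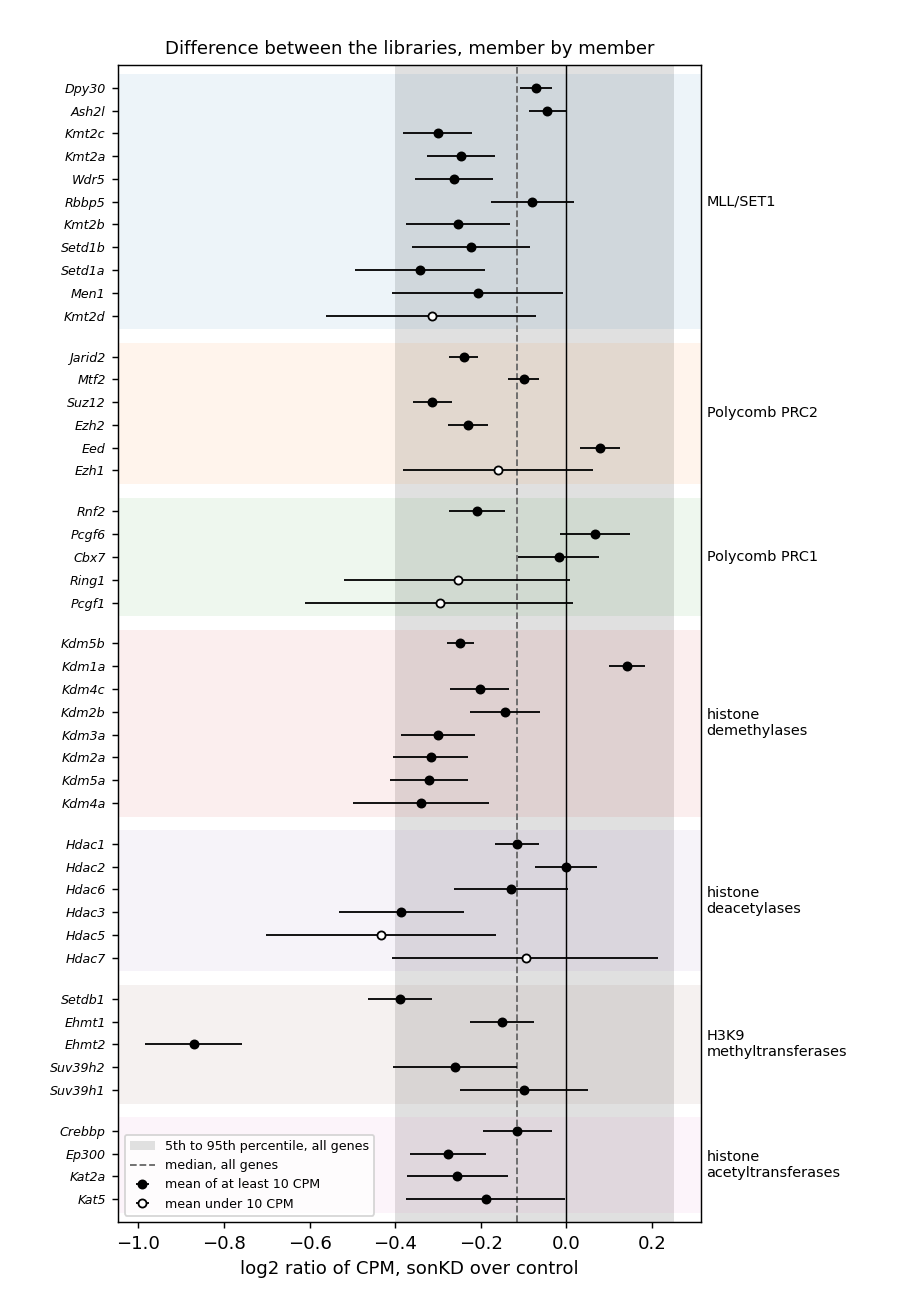
Log2 ratio of CPM, sonKD over control, for each gene with its 95% counting interval. Filled points had a mean of at least 10 CPM and open points less, the grey band spans the 5th to 95th percentile of all 8063 genes, and the dashed line is their median at -0.12. Ehmt2 at -0.87 is the only filled point outside the band, and Kdm1a at 0.14 is the highest.

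The demethylases had the lowest median of the role groups, at -0.27 over 8 genes, and also the highest single ratio. Kdm1a (LSD1), which removes methyl groups from mono- and dimethylated H3 lysine 4, had 10226 and 8833 UMIs, or 250 CPM (245 to 255) in control and 276 CPM (270 to 282) in sonKD, a log2 ratio of 0.14 (0.10 to 0.18), or 110% of control. The other 7 were lower in sonKD with intervals below 0, where 51.5% of all genes had such an interval. Such counts depend on abundance, since intervals narrow with a gene's level. Kdm5b, an H3 lysine 4 demethylase and the most abundant of the 45 transcripts by UMI count, had 20859 and 13761 UMIs, or 510 CPM (503 to 517) in control and 430 CPM (422 to 437) in sonKD, a ratio of -0.25 (-0.28 to -0.22). Kdm4a, which acts on H3 lysine 9 and lysine 36, had 851 and 527 UMIs, or 20.8 CPM (19.4 to 22.3) and 16.5 CPM (15.1 to 17.9), a ratio of -0.34 (-0.50 to -0.18). Kdm5a, a paralog of Kdm5b, Kdm2a, an H3 lysine 36 demethylase, and Kdm3a, an H3K9 demethylase, followed at -0.32, -0.32 and -0.30. Kdm4c, a paralog of Kdm4a, had a ratio of -0.20, and Kdm2b, which brings a variant PRC1 complex to CpG islands, had -0.14 (-0.22 to -0.06).

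Among the 4 deacetylases at 10 CPM Hdac3 alone was past the lower limit, and the abundant Hdac1 and Hdac2 had ratios near that of all genes or above it. Hdac1, a catalytic subunit of the NuRD and Sin3 complexes, had 7347 and 5309 UMIs, or 180 CPM (176 to 184) in control and 166 CPM (161 to 170) in sonKD, a log2 ratio of -0.12 that equals the median of all genes at this precision. Its paralog Hdac2 had 3509 and 2748 UMIs, or 85.8 CPM in both libraries, with intervals of 83.0 to 88.7 and 82.6 to 89.1, and its ratio was 0.09 under TMM. Hdac3, the enzyme of the NCoR and SMRT corepressor complexes, had 1019 and 611 UMIs, or 24.9 CPM (23.4 to 26.5) in control and 19.1 CPM (17.6 to 20.6) in sonKD, a ratio of -0.39 (-0.53 to -0.24). Hdac6, a mainly cytoplasmic tubulin deacetylase, was at 27.2 and 24.9 CPM, with an interval of the ratio from -0.26 to 0.00.

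The H3K9 methyltransferases held the gene that differed most. Ehmt2 (ENSMUSG00000013787, also called G9a) encodes a mono- and dimethyltransferase of H3K9 that works as a heterodimer with the product of Ehmt1. Ehmt2 had 2104 and 901 UMIs, or 51.4 CPM (49.3 to 53.7) and 28.1 CPM (26.3 to 30.0). That is 54.7% of control (50.5 to 59.1), a log2 ratio of -0.87 (-0.99 to -0.76). It was the 14th lowest ratio of all 8063 genes, lower than that of Son itself at -0.67 (-0.73 to -0.61). Its partner Ehmt1 was at 85.8 CPM (83.0 to 88.7) and 77.3 CPM (74.2 to 80.4), a ratio of -0.15 (-0.23 to -0.08). Setdb1, the enzyme that silences endogenous retroviruses with Trim28, had 3858 and 2308 UMIs, or 94.3 CPM (91.4 to 97.3) in control and 72.1 CPM (69.1 to 75.1) in sonKD, a ratio of -0.39 (-0.46 to -0.31). Suv39h2 and Suv39h1 encode the paired enzymes that trimethylate H3K9 in pericentromeric heterochromatin. Suv39h2 had a ratio of -0.26 (-0.41 to -0.12), and Suv39h1, with 871 and 637 UMIs or 21.3 CPM (19.9 to 22.8) and 19.9 CPM (18.4 to 21.5), one of -0.10, with an interval that included 0.

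Ehmt2 lies on chromosome 17 of GRCm38 from 34898469 to 34914052 on the plus strand, with 27 exons in its longest protein-coding transcript, and overlaps no other annotated gene. Setdb1 lies on chromosome 3 from 95323525 to 95357202 on the minus strand and overlaps Cers2 and other genes on the opposite strand. Kdm1a lies on chromosome 4 from 136550540 to 136602723 on the minus strand and overlaps Luzp1 on the opposite strand and Gm12987 on its own. Whether strand was used in counting is not given in the sources used here, and none of the 3 genes shares 3' end sequence with another gene.

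The promoter windows of these 3 genes are shown because they had the lowest, the next lowest and the highest ratio among the 39 members. Each runs from 250 bases before to 50 bases after the start site in RefSeq (GRCm38.p6), 5′ to 3′ on the gene's strand, with CpG dinucleotides in capitals. The windows are chr17:34898224-34898523 (plus) for Ehmt2, the upstream of its listed starts, chr3:95357153-95357452 (minus) for Setdb1, and chr4:136602674-136602973 (minus) for Kdm1a.
Ehmt2: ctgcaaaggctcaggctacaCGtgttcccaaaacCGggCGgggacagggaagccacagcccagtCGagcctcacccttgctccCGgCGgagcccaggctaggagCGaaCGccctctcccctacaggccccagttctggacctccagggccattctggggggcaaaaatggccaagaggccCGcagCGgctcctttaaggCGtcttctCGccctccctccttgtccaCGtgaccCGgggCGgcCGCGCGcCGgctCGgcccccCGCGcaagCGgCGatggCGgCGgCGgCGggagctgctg
Setdb1: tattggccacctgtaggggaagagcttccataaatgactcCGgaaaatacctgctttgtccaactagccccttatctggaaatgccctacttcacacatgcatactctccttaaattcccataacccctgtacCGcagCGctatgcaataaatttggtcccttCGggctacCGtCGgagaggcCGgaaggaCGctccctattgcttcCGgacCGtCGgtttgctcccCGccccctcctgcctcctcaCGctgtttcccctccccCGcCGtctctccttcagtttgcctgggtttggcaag
Kdm1a: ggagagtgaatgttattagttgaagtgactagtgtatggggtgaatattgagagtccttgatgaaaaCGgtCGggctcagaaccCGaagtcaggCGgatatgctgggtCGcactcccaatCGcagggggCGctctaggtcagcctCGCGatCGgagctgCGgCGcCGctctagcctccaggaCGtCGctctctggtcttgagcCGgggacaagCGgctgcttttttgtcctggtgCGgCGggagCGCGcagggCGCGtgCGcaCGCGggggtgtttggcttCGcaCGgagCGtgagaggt
The Ehmt2 window holds 28 CpGs at 70.3% GC, that of Setdb1 15 CpGs at 55.3% and that of Kdm1a 29 CpGs at 61.3%. The other listed window of Ehmt2 holds 40 CpGs at 82.7% GC. RefSeq windows were found for 37 of the 45 genes, 56 windows in all, with a median of 28 CpGs against 7 over all 32817 windows. The latter were not limited to genes at 10 CPM in these cells. Whether these contrasts are particular to the members among such genes was not tested. GGGCGG, searched on both strands, occurs in 66.1% of the members' windows and 35.6% of all windows, CCAAT in 37.5% and 37.4%, and TATAAA in 1 member window against 13.6% of all. Of the windows printed, those of Ehmt2 and Setdb1 hold GGGCGG, those of Setdb1 and Kdm1a hold CCAAT, and none holds TATAAA. None of the motifs contains another, and a match is not shown to be a bound site.

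The acetyltransferases were all lower in sonKD with intervals below 0, where 51.5% of all genes had such an interval. None was past the lower limit, where 10.2% of all genes were. Ep300, a coactivator acetylase of enhancers, had 2661 and 1720 UMIs, or 65.1 CPM (62.6 to 67.6) in control and 53.7 CPM (51.2 to 56.3) in sonKD, a log2 ratio of -0.28 (-0.37 to -0.19). Its paralog Crebbp had 3008 and 2176 UMIs, or 73.5 CPM (70.9 to 76.2) and 67.9 CPM (65.1 to 70.9), a ratio of -0.11 (-0.19 to -0.03). Kat2a (GCN5), the enzyme of SAGA and ATAC, had a ratio of -0.25 (-0.37 to -0.14) from 36.1 CPM in control. Kat5 (TIP60) had -0.19 (-0.38 to -0.00) from 14.2 CPM.

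Other genes of the same pathways were read from lists that hold no member. Of their 132 genes, 108 reached 10 CPM, 15 were past the lower limit, or 13.9%, and 0 past the upper, with a median log2 ratio of -0.16, where 10.2% of all genes were past the lower and 3.5% past the upper limit. The 9 other MLL/SET1 subunits at this level held 4 lower genes, led by Cxxc1, the CpG-binding subunit of SET1 complexes, from 14.2 to 8.83 CPM (-0.68), and Hcfc1 at -0.46. The 12 other demethylase genes held 4 as well, led by Rcor2, a corepressor partner of Kdm1a, from 36.0 CPM to 20.5 CPM, a ratio of -0.81 (-0.95 to -0.68), and by Kdm4b at -0.43. Kdm6a is counted in both lists. Rcor2 and Kdm1a, which act in the same complex, therefore differed in opposite directions.

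Of 20 other Polycomb genes 2 were past the lower limit, and Bap1 at -0.44 and Asxl2 at -0.34, subunits of the deubiquitinase that removes the PRC1 mark, were farthest from 0. Of 23 other deacetylase and corepressor genes 1 was past the lower limit, with the NuRD subunits Mta2 at -0.37 and Mta1 at -0.31 farthest from 0. Of 23 other acetyltransferase genes 2 were, Msl2 at -0.46 and Msl1 at -0.37. Of 14 other methyltransferases 3 were, among them the H3 lysine 79 enzyme Dot1l at -0.58 and the H3 lysine 36 enzyme Nsd2 at -0.34. Of 8 other H3K9 pathway genes 0 were past the lower limit and the median was -0.01, with Trim28 at -0.26 and the HUSH subunit Mphosph8 at 0.15 farthest from 0.

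The cells of sonKD were deeper, so the ratios were also taken within ranges of depth. In cells with 5000 to 10000 UMIs (3475 in control, 675 in sonKD) Ehmt2 was at 50.2 CPM in control, against 22.7 in sonKD, a log2 ratio of -1.14 (-1.42 to -0.88). With at least 10000 UMIs (989 and 1884 cells) it was at 56.6 and 29.6 CPM, a ratio of -0.94 (-1.08 to -0.79). Within 2500 to 5000 UMIs (514 and 172 cells) it was at 35.1 and 15.9 CPM, a ratio of -1.14 (-2.26 to -0.18). The ratio was thus lower within each range than over all cells, with overlapping intervals. The CPM of Ehmt2 was lowest in the shallowest cells of both libraries, but no interval was computed for these levels, and these cells are few.

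The other members differed more between the ranges. With at least 10000 UMIs 18 of 39 members were past the lower limit, or 46.2%, where 21.9% of all genes were. With 5000 to 10000 UMIs 13 of 40 were, or 32.5%, where 24.2% of all genes were. In these ranges 0 members were past the upper limit, where 4.28% and 7.39% of all genes were. The median over the members was -0.28 and -0.27 in these ranges, and the median of all genes was -0.17 and -0.16. Setdb1 had ratios of -0.42 (-0.53 to -0.32) and -0.66 (-0.84 to -0.50) there, and Kdm4a had -0.53 (-0.74 to -0.31) and -0.45 (-0.81 to -0.10). In the shallowest range 5 members were past the lower limit, or 12.5%, where 18.3% of all genes were, and 6 past the upper, where 27.5% of all genes were. There Setdb1 was at 69.1 CPM in control, against 97.1 in sonKD, a ratio of 0.49 (0.03 to 0.94), and Malat1 was at 3648 and 6721 CPM in the same cells. In these cells 16 members had a sign opposite to that over all cells, and Suv39h1 moved farthest, to 1.21 (0.39 to 2.01). The median of all genes was also above 0 there, at 0.05, against -0.12 over all cells. The share of all genes that changed sign was not computed. Eed and Kdm1a were higher in sonKD in all 3 ranges, though the interval for Eed included 0 in the cells under 10000 UMIs.

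**Figure D3:**
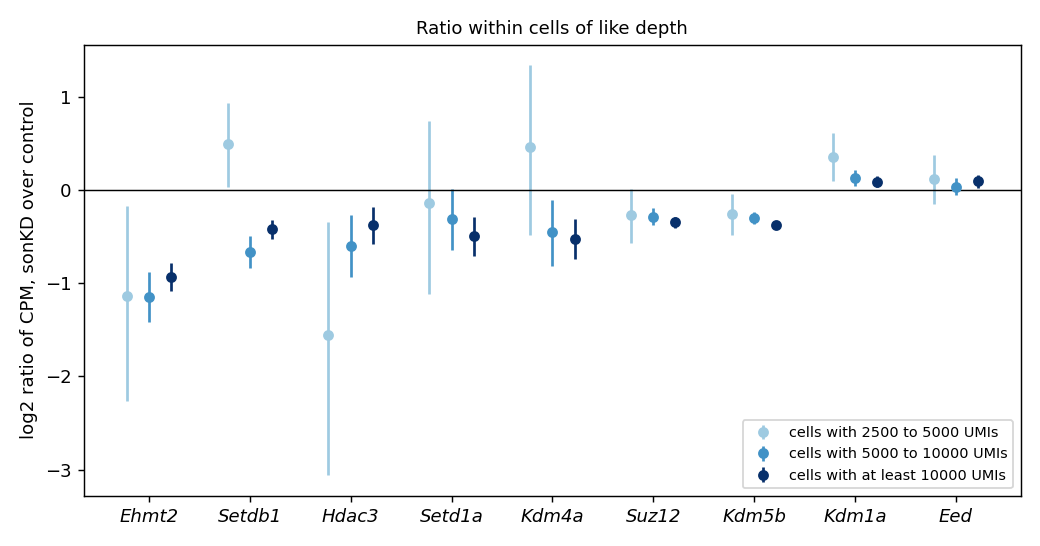
Log2 ratio of CPM, sonKD over control, for 9 members within cells of 2500 to 5000, 5000 to 10000 and at least 10000 UMIs, with 95% counting intervals. Ehmt2 lies between -1.14 and -0.94 in the 3 ranges, and Setdb1 and Kdm4a have positive ratios in the shallowest cells alone.

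Shares of cells with a UMI of a gene were taken after random thinning of every cell to 2500 UMIs, which left out no cell. The libraries held no cell type that lacks these genes, so the shares are read between the libraries only. In control, 11.7% of cells held an Ehmt2 UMI (10.8 to 12.6), against 6.26% in sonKD (5.38 to 7.24), a difference in percentage points of -5.39 (-6.67 to -4.08). Without thinning the shares were 32.7% and 25.6%. Kdm1a was found in 44.1% (42.7 to 45.4) and 48.7% (46.8 to 50.6), a difference of 4.65 (2.30 to 6.99), and unthinned in 81.6% and 91.4%. Of the 45 genes, 22 had an interval of this difference below 0, Kdm1a alone had one above 0, and 22 included 0. Of the 39 at 10 CPM these were 20, or 51.3%, below 0 and 1 above. In a second random thinning they were 18 and 2, and of all 8063 genes 27.2% were below 0 and 7.44% above. The interval narrows with a gene's level, so these shares also depend on abundance.

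At this depth a cell showed a median of 8 of the 45 genes in each library, with a range of 1 to 19 in control and 0 to 16 in sonKD. Kdm5b was the most widely seen, in 67.1% of control and 61.2% of sonKD cells (unthinned 92.3% and 93.7%), and Pcgf1 and Hdac7 the least. The variance of thinned counts over their mean, which is 1 for Poisson sampling, was highest for Jarid2, at 1.29 in control and 1.24 in sonKD, followed by Mtf2 at 1.20 and 1.24 and Kdm5b at 1.19 and 1.17. Ehmt2 was at 1.02 and 0.99, close to Poisson sampling at this depth in both libraries.

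Levels outside the cells were measured in near-empty droplets and in barcodes with more than 10% mitochondrial UMIs. In droplets with 100 to 500 UMIs the members were scarcer than in cells. In control 37 of 39 were past the lower limit against the cells, or 94.9%, where 70.8% of all genes were, and in sonKD 38 of 39, or 97.4%, where 73.4% were. Dpy30 was the 1 member past the upper limit in each library, where 9.97% and 8.19% of all genes were, at 454 and 426 CPM against 338 and 321 CPM in cells. At the other end Kmt2a was at 10.5 and 7.03 CPM in droplets against 78.4 and 66.2 CPM in cells. The sources of this free RNA were not tested. Ehmt2 was at 29.4 CPM (27.0 to 32.0) in control droplets and 11.4 CPM (9.94 to 13.1) in sonKD droplets, a log2 ratio of -1.36 (-1.60 to -1.13). Between the libraries, 23 of 39 members were past the lower limit in droplets, or 59.0%, where 38.7% of all genes were, and 0 past the upper, where 3.7% were. Eed and Kdm1a again had ratios above 0, at 0.20 (0.12 to 0.28) and 0.10 (0.01 to 0.20).

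The barcodes over 10% mitochondrial UMIs, with the same minimums of UMIs and genes, numbered 625 in control, or 11.2% of barcodes at those minimums, and 1056 in sonKD, or 27.9%. They held Malat1 at 13157 and 8960 CPM, against 2634 and 2192 CPM in the cells. Against the cells of the same library, 17 of 39 members were past the upper limit in control, or 43.6%, where 39.8% of all genes were, and 6 in sonKD, or 15.4%, where 33.3% were. Past the lower limit were 8 and 7 members, where 24% and 22.1% of all genes were. Between the libraries 19 of 39 were past the lower limit, or 48.7%, where 28.3% of all genes were, and 0 past the upper, where 9.39% were. Ehmt2 was at 33.9 and 18.7 CPM there, a ratio of -0.86 (-1.37 to -0.35) from 67 and 68 UMIs. Eed, which was higher in sonKD in cells, was at 280 CPM in control, against 267 in sonKD in these barcodes, with an interval that included 0.

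Within each library the cells were ordered by the UMIs of 42 S phase genes over those of S phase and 52 G2/M genes together, and the outer groups of 1659 control and 910 sonKD cells were compared. This is a range and not a set of phases, since 1445 control and 815 sonKD cells lay within 2 percentage points of a limit. The G2/M end was also deeper, with medians of 8342 and 12353 UMIs against 7417 and 11221.5 at the S end, and the part of this gap was not tested. No member is on either list. Of the 39 members, 3 in control and 4 in sonKD were past the lower limit at the S end against the G2/M end, where 6.52% and 7.44% of all genes were, and 0 and 1 were past the upper, where 4.43% and 3.57% were. The intervals lay on the same side of 0 in both libraries for 10 members. The share of all genes for which this held was not computed, and intervals narrow with a gene's level.

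Of the 4 acetyltransferases, Kat5, Crebbp and Kat2a were higher at the G2/M end in both libraries, while Ep300 had ratios of 0.13 and -0.03 with intervals that included 0. Kat5 was at 16.5 CPM (14.5 to 18.7) there against 12.3 CPM (10.4 to 14.4) at the S end in control, and at 14.0 CPM (11.9 to 16.3) against 9.29 CPM (7.50 to 11.4) in sonKD, log2 ratios of S over G2/M of -0.43 and -0.59. Crebbp had ratios of -0.33 and -0.23 and Kat2a of -0.25 and -0.28. Kdm5b was at 596 CPM at the G2/M end and 444 CPM at the S end in control, and at 494 and 394 CPM in sonKD, ratios of -0.42 (-0.47 to -0.38) and -0.33 (-0.38 to -0.27). Mtf2 had -0.16 and -0.19. Rbbp5, Suz12, Kdm2b, Hdac1 and Jarid2 were higher at the S end in both libraries. Suz12 was at 275 CPM at the S end and 237 CPM at the G2/M end in control, and at 225 and 185 CPM in sonKD, ratios of 0.21 and 0.28. Suz12 and Mtf2, both subunits of PRC2, thus lay on opposite sides.

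Ehmt2 was lower and Kdm1a higher in sonKD at both ends, but Eed differed between them. Ehmt2 had a log2 ratio of sonKD over control of -0.79 (-0.98 to -0.60) at the G2/M end and -0.86 (-1.07 to -0.65) at the S end, and Kdm1a had 0.15 at each. Eed had 0.14 (0.06 to 0.22) at the G2/M end and -0.03 (-0.11 to 0.06) at the S end, and this change was not tested. Pcgf6 had 0.12 and -0.05, with intervals that included 0, and 5 of the 39 members in all had opposite signs at the ends. How many of all genes did so was not computed. Of the 39 members, 8 were past the lower limit in sonKD at the G2/M end, where 12.6% of all genes were, and 9 at the S end, where 15.5% were. At both ends 0 were past the upper limit, where 4.19% and 4.24% of all genes were.

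**Figure D4:**
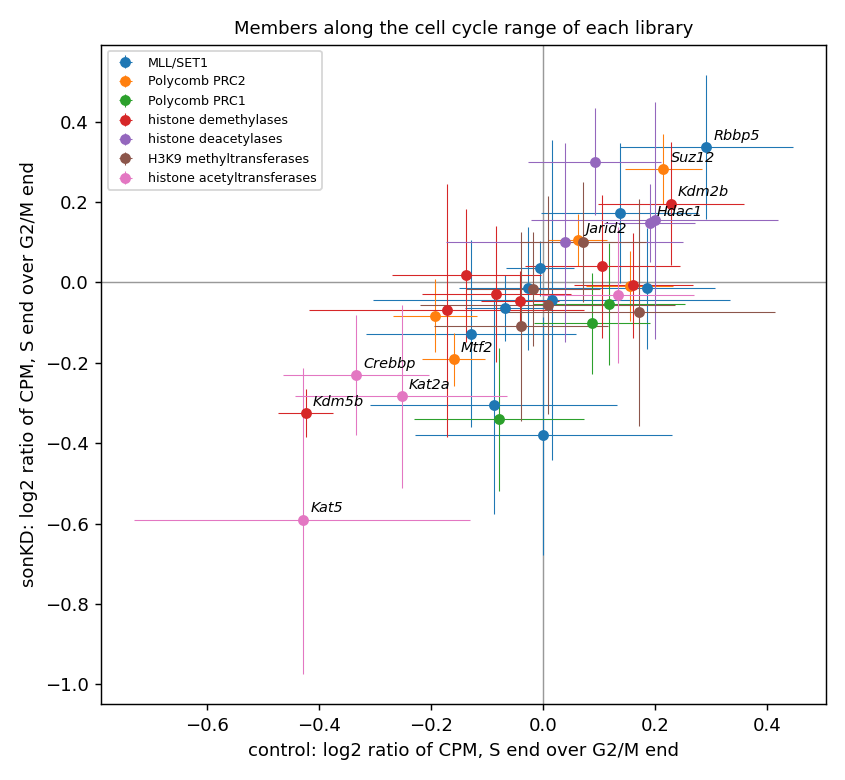
Log2 ratio of CPM, S end over G2/M end, for 39 members in control (x axis) and sonKD (y axis), coloured by role, with 95% counting intervals. The 10 named genes have intervals on the same side of 0 in both libraries, with Kat5, Kdm5b, Crebbp, Kat2a and Mtf2 low and Rbbp5, Suz12, Kdm2b, Hdac1 and Jarid2 high.

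Most members had more exons than the median gene, a property that the choice did not use. The 39 ranged from 5 exons in Dpy30 to 59 in Kmt2c, and 32 of them were above the median of all genes. Their longest protein-coding transcripts in GENCODE M21 had a median of 18 exons, against 9 for all genes at 10 CPM, and a median length of 4142 bases against 3068. Members with more than 18 exons had a median log2 ratio of -0.25 (19 genes) and the others -0.15 (20 genes). All genes with more than 18 exons had a median of -0.18 (1452 genes) and the others -0.10 (6611 genes), so the members lay below all genes on both sides of this limit. Exon number was not matched within either side, and its part in these gaps was not tested. Across genes, which are not independent replicates and share both libraries, Spearman's rho between exon number and ratio was -0.44 for the 39 members and -0.29 for all genes. For transcript length it was -0.43 and -0.28, and for the GC content of the transcript -0.14 and -0.03.

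Intron length was examined beside exon number. All 5 members past the lower limit had a mean intron length at or below 2095 bases, the median of the 39. Of all genes, 530 of 3434 at or below this limit and 280 of 4484 above it were past the lower limit. Ehmt2 had a mean intron length of 425 bases and a GC content of 60.8%, and Ehmt1, with the same number of exons, had 4759 bases and 51.2%. Hdac6, with 29 exons and a mean intron of 487 bases, had a ratio of -0.13, and Kmt2b, with 37 exons and 316 bases, had -0.25. Spearman's rho between mean intron length and ratio was 0.26 across the members and 0.02 across all genes.

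**Figure D5:**
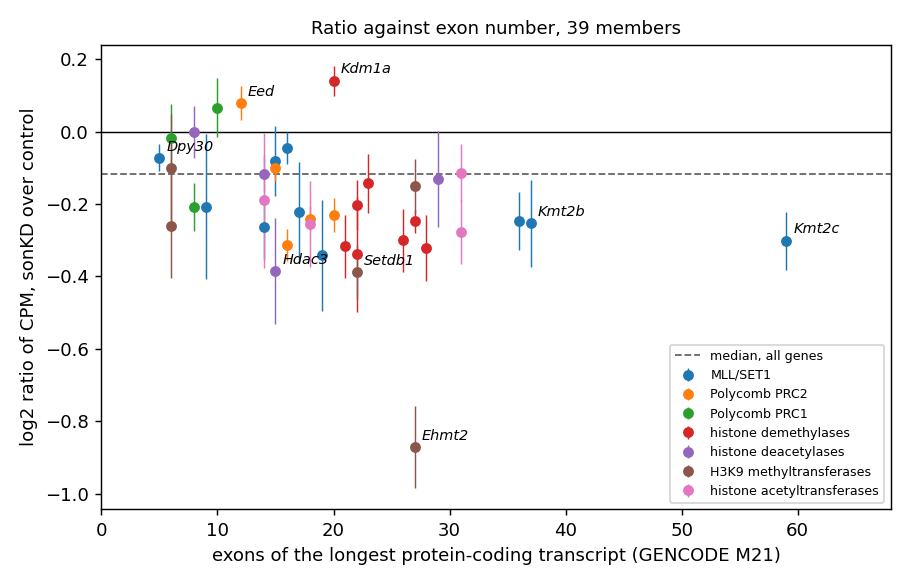
Log2 ratio of CPM, sonKD over control, against the number of exons for 39 members, coloured by role, with 95% counting intervals and the median of all genes as a dashed line. Kmt2c with 59 exons lies at -0.30 and Ehmt2 with 27 exons at -0.87, below every other member.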

How the data were processed

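The files, as deposited, give unnormalized UMI counts for each gene in each barcode, made by the authors with Cell Ranger 7.1.0 per the file headers, and with genome build mm10 per the submitters' processing notes. The annotation release, strand setting and use of intronic reads are not given in the sources used here. Positions are from GENCODE M21 (GRCm38), in which 32235 of the 32285 gene IDs occur. The members and lists were chosen with earlier results of these data known.

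Counts were summed over the cells of each library and scaled to CPM with Python 3.11.15, numpy 2.4.6 and scipy 1.17.1. A 3' UMI counts a molecule once, so CPM was not divided by length. Ratios have no pseudocount, and counts under 3 were set to 3. Intervals are exact Poisson for levels, exact conditional binomial for ratios and Clopper-Pearson for shares. The interval of a difference between shares joins both as a root sum of squares. Doublets were not removed, and an alternative left out the top 5% of barcodes by UMIs. TMM factors came from edgeR 4.0.16. Groups came from the sample titles. The ratio and its interval were tested on simulated Poisson sums. These hold no variation between cells or cultures, so the test covers counting error only. Values are given in full for members past either limit, the most abundant and the highest and lowest ratio of each role group, Son, and the 2 genes of each pathway list farthest from 0.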

Additional observations from a re-analysis of the deposited data

How the results depend on the processing

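No paired analysis was possible because each group held 1 sample. Ranges of depth were chosen after seeing the data. The count of members past the lower limit was 5 in the report, where 10.2% of all genes were past it. It was 1 with TMM factors (4.60% of all genes), 1 in CPM without mitochondrial and ribosomal protein genes (5.31%) and 1 with a minimum of 50 CPM (26 members, 7.05%). It was 9 without the top 5% of barcodes by UMIs (11.5%), 15 in cells with 5000 to 15000 UMIs (17.1%), 13 in cells with 5000 to 10000 (24.2%) and 18 in cells with at least 10000 (21.9%). The median was -0.132 with TMM factors and -0.0061 in cells with 2500 to 5000 UMIs, where 6 members were past the upper limit (27.5% of all genes). In those cells 16 members changed sign, among them Kdm4a at 0.459, Setdb1 at 0.491, Men1 at 0.82 and Suv39h1 at 1.21, the largest shift. The median of all genes was 0.054 there, against -0.116 over all cells. Over the alternatives 19 members changed sign at least once. The share of all genes that changed sign was not computed, and TMM factors moved the median of all genes by 0.09. Ehmt2 stayed between -1.14 and -0.78 under the alternatives run, apart from the minimum of 50 CPM, which leaves it out. Of 509 values of single members under alternatives that can move a ratio, 388 stayed inside the counting interval. Members under 10 CPM are limited by counting error, and 1 library per group limits all ratios.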
